A study of Mus musculus with 6 samples.

Results

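The Kruppel-like factors are zinc-finger transcription factors, described here as 10 listed genes: Klf2, Klf3, Klf4, Klf5, Klf6, Klf9, Klf10, Klf11, Klf13 and Klf15. This list was chosen with earlier results of these data known. All 10 were found by symbol among the 49585 genes of the count table. The libraries came from AML12 cells, an immortalised mouse hepatocyte line derived from a mouse that carries a human transforming growth factor alpha transgene. One group of 3 libraries, numbered 4, 5 and 6, came from cells transfected with an over-expression construct holding the Zac1 open reading frame, and the other group of 3, numbered 1, 2 and 3, from cells transfected with the EGFP open reading frame. Zac1 is a zinc-finger protein encoded by the imprinted gene Plagl1, and EGFP is a fluorescent protein. RNA was sequenced as polyA libraries 24 h after transfection. The labels name neither the promoter of the constructs nor the share of cells that took them up. They also do not say whether replicates are separate cultures, so p-values here cover the variation among these libraries, possibly technical in origin.

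All family members bind GC-rich and CACCC-type DNA boxes through a block of zinc fingers near the C-terminal end, and they differ in the rest of the protein. Klf9, Klf10, Klf11 and Klf13 recruit the Sin3 corepressor, Klf3 recruits the CtBP corepressors, and Klf2, Klf4, Klf5 and Klf6 mostly activate transcription. Several are early response genes, and in liver Klf15 is known for its part in amino acid breakdown and glucose production and Klf6 for its induction after injury.

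Libraries held 16104498 to 18302538 counts in Zac1 and 14801240 to 15145092 in EGFP. Plagl1 stood at 6598, 7929 and 8064 CPM in Zac1 (reads per TMM-scaled library size, on the usual CPM scale) and at 2.60, 5.30 and 4.52 CPM in EGFP, so the construct matches the labels. Of the 12130 genes that reached a mean count of 10, 459 passed the edgeR quasi-likelihood test at an adjusted p under 0.05, 378 higher and 81 lower in Zac1. Counts of calls rested on single libraries: 963 genes passed without Zac1 4, 206 without Zac1 5, 221 without Zac1 6 and 236 without EGFP 3. Genes higher in Zac1 then numbered 584, 187, 196 and 214, and lower genes 379, 19, 25 and 22. Without EGFP 1 there were 125 lower genes. Of the calls 82.4% were higher, against 99.3% on unscaled counts and 64.7% after a least-squares correction for GC content. Both Zac1 4 (11.6) and EGFP 1 (18.7) stood apart from the other libraries (-10.7 to -3.51) on the second principal component, which held 15.5% of the variance. Where leaving either out changed the call of a Kruppel-like factor, the value without it is given. The cells carried liver transcripts, with Hnf4a at 206 CPM in Zac1 and 201 CPM in EGFP and Alb at 34.7 and 34.6 CPM. The hepatocyte marker Trf had 3 reads in all Zac1 libraries and 2 in all EGFP libraries. Of 5 bile duct markers, Krt19 stood at 253 CPM in Zac1 and 257 CPM in EGFP and Spp1 at 275 and 310 CPM. Sox9 had 94.8 and 87.6 CPM and Krt7 46.0 and 40.8 CPM, while Epcam had 3 reads in Zac1 and 1 in EGFP. The summed level of 8 stellate cell or fibroblast markers was 2.24 to 2.72 CPM in Zac1 and 0.604 to 1.01 CPM in EGFP, with Dcn and Lum at 0 in every library. Col1a1, a collagen gene and the 1 tested member of those 8, was higher, at 1.89 CPM in Zac1 and 0.649 CPM in EGFP (1.54 on the log2 scale, edgeR adjusted p = 0.0164), and its part in the results below was not tested. The summed level of 5 endothelial markers was 0.747 to 1.25 CPM in Zac1 and 0.537 to 0.877 CPM in EGFP. Pecam1 among them had 38 reads in Zac1 and 17 in EGFP, and Stab2 had 2 and 5. For 5 macrophage markers the summed level was 1.88 to 2.55 CPM and 1.96 to 2.48 CPM, and Clec4f among them was at 0 throughout. Csf1r had 7, 4 and 19 reads in Zac1 and 0 in every EGFP library. Cd68 had 56 reads in Zac1 and 68 in EGFP, and Ptprc had 25 and 31. Pecam1 and Csf1r fell short of the mean count needed for testing. In such bulk samples, a change in the number of responding cells and a change in RNA per cell cannot be told apart.

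The main result on the family was narrow. Klf10 rose 1.27-fold with Zac1, and the other 8 tested factors did not pass the test over all genes. At an adjusted p under 0.05, 1 of 9 tested members was called, where 3.78% of all tested genes were. It was 1 of 9 higher, where 3.12% of all tested genes were, and 0 lower, where 0.668% were. At an unadjusted p under 0.05 there were 3 of 9 members (Klf10, Klf13 and Klf4), all higher, where 15.8% of all tested genes reached that level in either direction. Klf2 was too rarely read to be tested. DESeq2 called the same single member, Klf10, and 0 lower.

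Because these factors bind GC and CACCC boxes, the promoters of the family were searched for those letters. RefSeq promoter windows of 300 bases, from 250 bases before to 50 after the annotated start, matched 8 of the 10 genes. Klf5 and Klf10 were not among them. The windows of the 4 other members whose groups did not overlap in CPM, Klf4, Klf11, Klf13 and Klf9, are shown so that their boxes can be compared. Capitals mark the GC box (GGGCGG, or CCGCCC on the other strand) and the CACCC box (CACCC, or GGGTG on the other strand), and adjoining or overlapping boxes run together.
Klf4 (GRCm38.p6 chr4:55532426-55532725, minus strand): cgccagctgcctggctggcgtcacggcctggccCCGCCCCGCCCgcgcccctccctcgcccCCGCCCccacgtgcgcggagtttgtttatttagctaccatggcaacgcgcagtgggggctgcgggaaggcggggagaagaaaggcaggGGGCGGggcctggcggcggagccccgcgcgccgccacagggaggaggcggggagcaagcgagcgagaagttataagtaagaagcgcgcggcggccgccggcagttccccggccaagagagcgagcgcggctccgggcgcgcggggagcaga
Klf11 (GRCm38.p6 chr12:24651121-24651420, plus strand): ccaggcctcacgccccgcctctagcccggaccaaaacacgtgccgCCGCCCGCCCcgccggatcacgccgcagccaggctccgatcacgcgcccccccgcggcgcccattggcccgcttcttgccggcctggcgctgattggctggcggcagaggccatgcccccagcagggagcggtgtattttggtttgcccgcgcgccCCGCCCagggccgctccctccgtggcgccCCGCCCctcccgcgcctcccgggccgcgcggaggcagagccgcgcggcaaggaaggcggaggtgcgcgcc
Klf13 (GRCm38.p6 chr7:63938866-63939165, minus strand): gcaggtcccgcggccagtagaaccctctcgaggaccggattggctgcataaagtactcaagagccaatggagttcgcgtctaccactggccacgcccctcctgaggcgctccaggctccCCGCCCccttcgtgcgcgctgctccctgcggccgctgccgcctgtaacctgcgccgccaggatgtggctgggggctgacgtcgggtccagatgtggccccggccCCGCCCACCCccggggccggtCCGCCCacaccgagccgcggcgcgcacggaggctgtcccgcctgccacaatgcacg
Klf9 (GRCm38.p6 chr19:23140976-23141275, plus strand): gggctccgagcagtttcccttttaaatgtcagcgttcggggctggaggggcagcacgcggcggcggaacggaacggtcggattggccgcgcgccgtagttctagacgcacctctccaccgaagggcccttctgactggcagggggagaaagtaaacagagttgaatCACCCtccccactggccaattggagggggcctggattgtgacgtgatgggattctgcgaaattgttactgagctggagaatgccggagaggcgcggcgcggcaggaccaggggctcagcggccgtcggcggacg
Klf4 and Klf11 each held 4 GC boxes, Klf13 held 3 and Klf9 held 0. Among the windows not printed, Klf3 held 6, Klf2 held 2, and Klf6 and Klf15 held 1 each. A GC box was thus present in 7 of 8 windows, and 35.7% of all 32851 windows of this length held one. The CACCC box was found 5 times in Klf3 and once each in Klf2, Klf9, Klf13 and Klf15, and 57.5% of all windows held it. The windows of the 8 members were GC-rich, from 63.0% in Klf6 to 77.7% in Klf11, against a median of 52.7% over all windows. A palindrome described for Zac1 binding, GGGGCCCC, occurred in 0 of the 8 windows and in 1.08% of all windows. These matches are letters in a window and no evidence of binding.

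Levels differed far more between members than between groups. CPM per kilobase of exon, which allows genes to be compared, gave the same order in both groups. Klf6 was the most abundant at 87.0 ± 2.90 in Zac1 and 91.4 ± 3.79 in EGFP (SD, n = 3 each). Klf9 followed at 31.7 ± 0.696 and 33.7 ± 0.869, then Klf13 at 25.5 ± 1.18 and 22.9 ± 0.697. Klf10 came next at 23.0 ± 0.505 in Zac1 and 18.1 ± 1.71 in EGFP, ahead of Klf3 (14.5 ± 0.310 and 14.7 ± 0.478) and Klf5 (13.6 ± 0.475 and 12.8 ± 0.683). Klf15, Klf4 and Klf11 were lower, at 9.12, 7.07 and 4.11 in Zac1 and 9.76, 6.10 and 3.71 in EGFP. Klf2 was last, at 0.0716 in Zac1 and 0.0846 in EGFP. No pair of neighbours in this order overlapped within either group, so each step was larger than the spread between libraries. Exon lengths are those of the merged annotation, and a gene whose main transcript is shorter than that is understated.

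**Figure D1:**
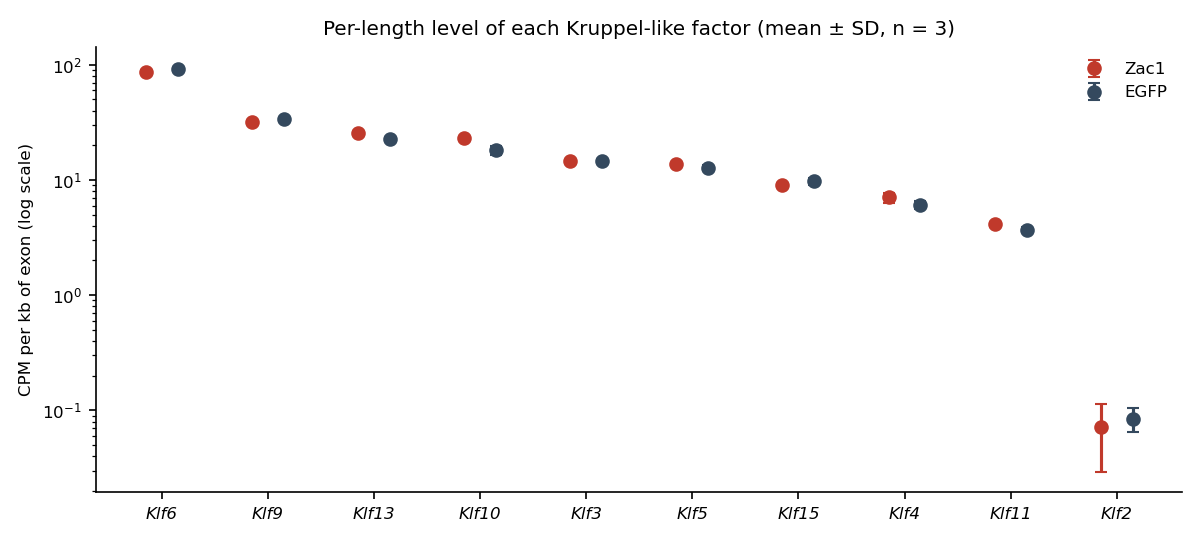
Per-length level (CPM per kilobase of exon, log scale) of the 10 Kruppel-like factors in Zac1 and EGFP libraries, as mean ± SD with n = 3. The order runs from Klf6, near 90, to Klf2, under 0.1, and is the same in both groups.

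Among the Sin3-recruiting members, Klf10 (ENSMUSG00000037465; GRCm38 chromosome 15, 38291463 to 38300706, minus strand) is a repressor first found as an early TGF-beta-induced gene of human bone cells. Its level was 98.4, 94.4 and 95.4 CPM in Zac1 libraries 4, 5 and 6, and 67.2, 79.5 and 79.7 CPM in EGFP libraries 1, 2 and 3. The lowest Zac1 library lay above the highest EGFP library, and EGFP 1 was the lowest of all. The means were 96.1 ± 2.11 CPM in Zac1 and 75.5 ± 7.16 CPM in EGFP (SD, n = 3 each). The log2 fold change was 0.35 (SE 0.07, edgeR adjusted p = 0.00889), a ratio of 1.27 with a 95% interval of 1.151 to 1.41. Klf10 passed under each of the 22 alternatives, with an adjusted p of at most 0.0395, reached without Zac1 5. Its log2 fold change was smaller without EGFP 1 (0.28, adjusted p = 0.0165) and without EGFP 1 and Zac1 4 together (0.26, adjusted p = 0.00103).

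Klf13 (ENSMUSG00000052040; GRCm38 chromosome 7, 63886351 to 63938915, minus strand) is another Sin3-recruiting member, known in T cells as an activator of the chemokine gene Ccl5. It had 183, 194 and 200.2 CPM in Zac1 and 173, 177 and 167 CPM in EGFP. The groups did not overlap, and the library nearest to the EGFP range was Zac1 4. The log2 fold change of 0.16 (SE 0.05, ratio 1.12, 95% interval 1.03 to 1.21) did not pass the edgeR test (adjusted p = 0.135). It passed without Zac1 4 (0.19, adjusted p = 0.0311), without Zac1 4 and EGFP 1 (0.20, 0.00305), with voom and library quality weights (0.18, 0.0161) and on unscaled counts (0.36, 0.00272). With GC offsets it was 0.11 (robust curve) and 0.09 (least squares), and 1106 tested genes with a transcript GC content within 1 percentage point of that of Klf13 had a median of 0.05.

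Klf11, the closest relative of Klf10, stood at 17.7, 18.8 and 17.0 CPM in Zac1 and at 15.6, 15.8 and 16.9 CPM in EGFP. The groups were separated only narrowly, by Zac1 6 and EGFP 3. Its log2 fold change was 0.15 (SE 0.09, edgeR adjusted p = 0.467, 95% interval of the ratio 0.967 to 1.27), whose upper end lies just under the estimate for Klf10. Klf9, a glucocorticoid- and thyroid hormone-responsive member, had 150, 152 and 156 CPM in Zac1 and 159, 161 and 167 CPM in EGFP. All 3 Zac1 libraries were below the EGFP libraries, yet the log2 fold change was -0.09 (SE 0.05, edgeR adjusted p = 0.433). The interval of its ratio, 0.874 to 1.01, does not include the rise of Klf10. On unscaled counts it turned to 0.12.

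Among activators, Klf4 (ENSMUSG00000003032; GRCm38 chromosome 4, 55527143 to 55532466, minus strand), known as a reprogramming factor and a regulator of epithelial differentiation, had 20.2, 20.4 and 24.0 CPM in Zac1. It had 18.7, 17.0 and 20.1 CPM in EGFP, so that Zac1 4 and EGFP 3 nearly met and Zac1 6 was the highest library. The log2 fold change was 0.22 (SE 0.10, edgeR adjusted p = 0.307, 95% interval of the ratio 1.002 to 1.345). It was 0.13 to 0.27 with any 1 library left out, and of the 22 alternatives it passed on unscaled counts alone (0.0159).

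Klf5, a factor of proliferating epithelia, had 68.0, 71.9 and 72.6 CPM in Zac1 and 65.0, 64.3 and 70.7 CPM in EGFP. The groups overlapped, through Zac1 4 and EGFP 3, and the log2 fold change was 0.09 (SE 0.06, edgeR adjusted p = 0.528). Klf6 had 395, 381 and 369 CPM in Zac1 and 395, 388 and 420 CPM in EGFP. These also overlapped, and the log2 fold change was -0.07 (SE 0.05, edgeR adjusted p = 0.526). With 19639 reads in Zac1 and 17949 in EGFP, Klf6 was the most deeply read member, and the 95% interval of its ratio ran from 0.884 to 1.03. Klf2, a flow-responsive factor of endothelial cells, was close to silent, with 1, 2 and 4 reads in Zac1 and 3, 2 and 2 in EGFP. A ratio of 0.869 with an exact 95% counting interval of 0.260 to 2.90 shows that a change of the size of Klf10 was not detectable at this depth.

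Klf3, the CtBP-recruiting repressor known from fat and blood cells, had 166, 165 and 159 CPM in Zac1 and 165, 160 and 171 CPM in EGFP. The groups lay on top of each other, with a log2 fold change of -0.02 (SE 0.05, edgeR adjusted p = 0.914, 95% interval of the ratio 0.917 to 1.06). Gm20033, a gene on the opposite strand, shares 404 exonic bases with Klf3. It had 25 to 33 reads in Zac1 and 13 to 20 in EGFP, against at least 2383 for Klf3 in any library. Klf15 had 24.9, 25.1 and 26.2 CPM in Zac1 and 24.9, 28.9 and 27.9 CPM in EGFP. Its lowest EGFP library was EGFP 1, at the level of Zac1, and the log2 fold change was -0.10 (SE 0.08, edgeR adjusted p = 0.606). On unscaled counts the signs of Klf3 and Klf15 turned to 0.185 and 0.106, and that of Klf6 to 0.13, without a call.

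**Figure D2:**
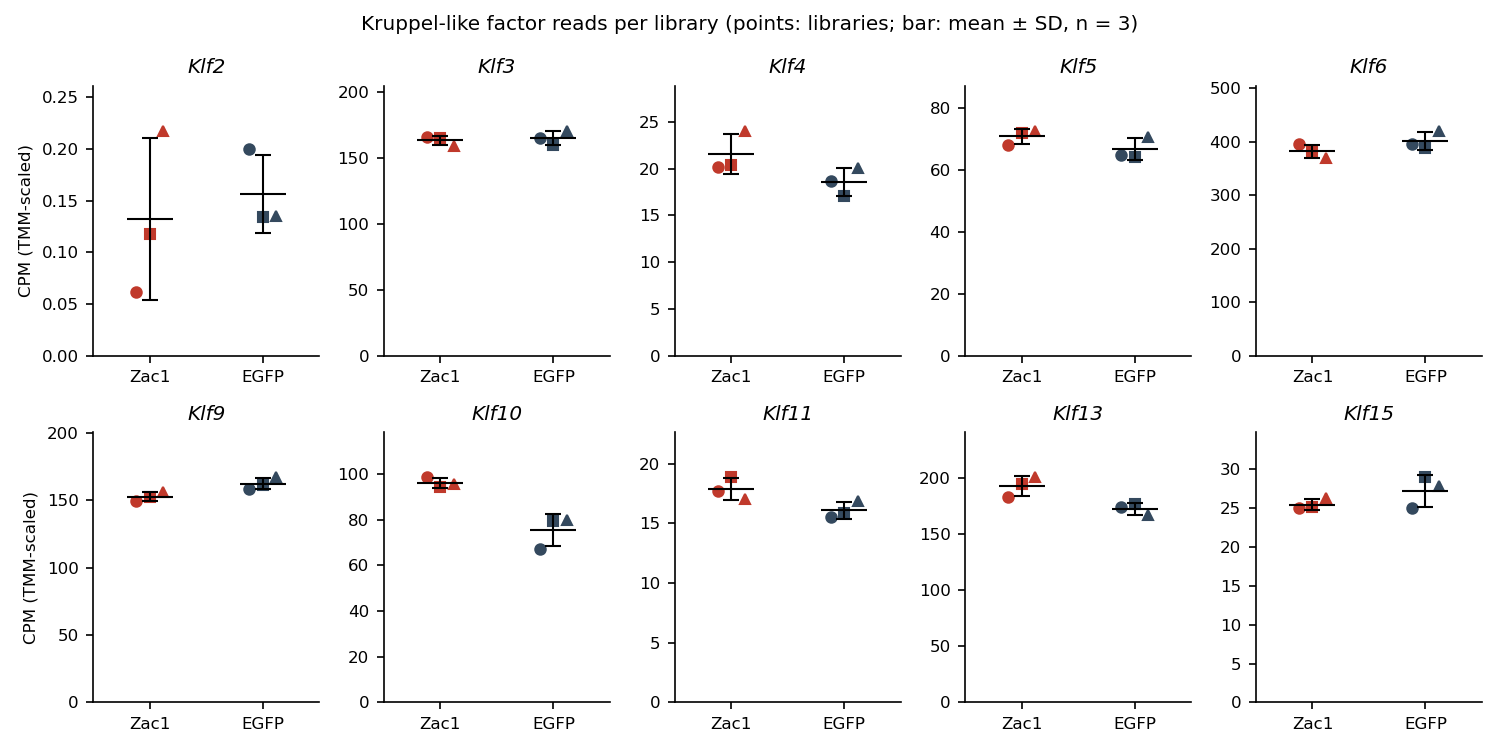
CPM of each of the 10 Kruppel-like factors per library, Zac1 on the left and EGFP on the right of each panel, with circles, squares and triangles for libraries 4, 5, 6 and 1, 2, 3. Bars give mean ± SD with n = 3. Klf10 shows the clearest gap, with Zac1 libraries from 94.4 to 98.4 CPM and EGFP libraries from 67.2 to 79.7 CPM.

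Of the 9 tested members, 4 had all Zac1 libraries above all EGFP libraries (Klf4, Klf10, Klf11 and Klf13), where 11.9% of all tested genes did. All Zac1 libraries were below for Klf9, 1 of 9, where 8.75% of all tested genes were. In either direction the groups were apart for 5 of 9 members and for 20.6% of all tested genes. The median log2 fold change of the 9 members was 0.09, and that of all tested genes -0.002. Summed over the 10 genes, the family's level was 1121 to 1123 CPM in Zac1 and 1084 to 1139 CPM in EGFP, ranges that overlap. Klf10 made up 8.40% to 8.77% of the family's reads in Zac1 and 6.20% to 7.28% in EGFP.

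**Figure D3:**
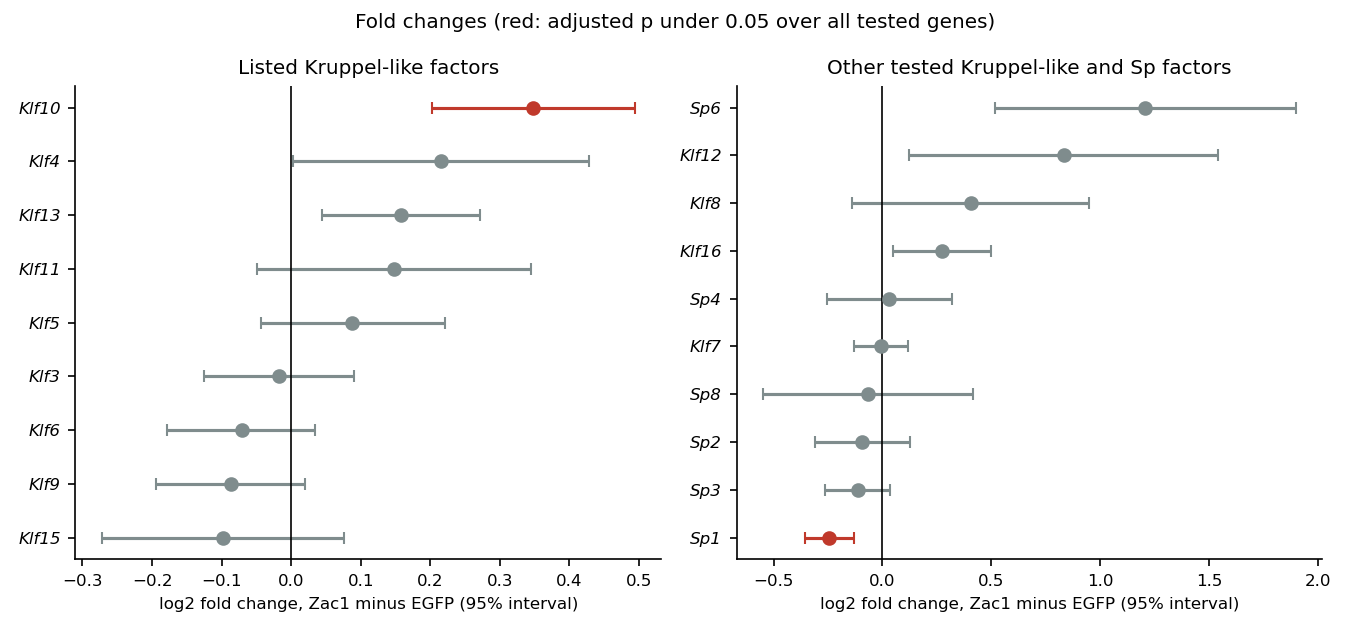
Log2 fold change (Zac1 minus EGFP) with its 95% interval for the 9 tested members (left) and the other tested Kruppel-like and Sp factors (right, on a wider axis), red where the edgeR adjusted p was under 0.05. Klf10 at 0.35 and Sp1 at -0.24 are the red points.

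Ratios of reads within a library do not depend on how libraries are scaled, so Klf10 was also set against each of the other 8 tested members. Klf10 over Klf9 was 0.611 to 0.658 in Zac1 and 0.424 to 0.494 in EGFP, 1.36 times as high in Zac1. Klf10 over Klf6 was 0.247 to 0.258 and 0.170 to 0.205, and Klf10 over Klf15 was 3.64 to 3.95 and 2.69 to 2.86. For these and for Klf3 and Klf5 the groups did not overlap, and the exact two-sided permutation test gave p = 0.1, the smallest that 3 against 3 libraries allow. Adjusted over the 8 ratios by Benjamini-Hochberg, these became 0.16. For Klf4, Klf11 and Klf13 the ratio overlapped between the groups (exact permutation p = 0.5, 0.2 and 0.2). Klf10 was put on top of each ratio because it had passed the test, so the ratios describe its rise and are no separate evidence of it.

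Relatives outside the 10 genes added no further rise by the test. Of 7 other Kruppel-like factors, Klf14 and Klf17 had 0 reads, and of the 4 tested 0 passed in edgeR, 2 of them with an unadjusted p under 0.05, Klf16 and Klf12. DESeq2 likewise called 0 of these. Klf16 stood at 24.8, 24.2 and 26.4 CPM in Zac1 and 24.7, 18.6 and 19.1 CPM in EGFP (log2 fold change 0.27, SE 0.11, edgeR adjusted p = 0.203). EGFP 1 lay with the Zac1 libraries, and without it Klf16 passed (0.42, adjusted p = 0.0166), as it did without EGFP 1 and Zac1 4 together (0.000629), with voom quality weights (0.0372) and on unscaled counts (0.00709). With the robust and least-squares GC curves its log2 fold change was 0.169 (adjusted p = 0.476) and 0.049 (0.858). Klf12, a CtBP-type repressor, had 1.40 ± 0.364 CPM in Zac1 and 0.782 ± 0.204 CPM in EGFP (SD, n = 3 each; log2 fold change 0.83, SE 0.33, edgeR adjusted p = 0.227), and passed with voom quality weights (0.0412) and on unscaled counts (0.0324). Klf1, the erythroid member of the family, was named after its values were seen. It had 19, 15 and 12 reads in Zac1 and 1, 2 and 1 in EGFP. That is a ratio of 9.99 with an exact 95% counting interval of 3.65 to 38.2, but its mean count of 8.33 kept it out of the test. With no filter on low counts its adjusted p was 0.00012, in a fit that shared the variance wholly over genes. That level is small beside the 1582 to 1756 reads of Klf10 in Zac1.

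The Sp factors bind the same GC boxes as the Kruppel-like factors. Of 6 tested, Sp1, the ubiquitous GC-box activator, fell and 0 rose, where 0.668% of all tested genes fell. Sp1 had 169, 169 and 157 CPM in Zac1 and 193, 193 and 199 CPM in EGFP. The groups were well apart (log2 fold change -0.24, SE 0.05, edgeR adjusted p = 0.0154). The call ended without Zac1 5 (0.0718), Zac1 6 (0.0949) or EGFP 3 (0.102) and on unscaled counts (0.638). Sp6, named after its values were seen, had 1.68, 3.35 and 2.12 CPM in Zac1 and 0.932, 0.805 and 1.35 CPM in EGFP (log2 fold change 1.21, SE 0.32, edgeR adjusted p = 0.054).

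Proteins that work with the family or control it were described from lists. Of 14 KLF cofactors and ubiquitin ligases, all tested, 0 passed in edgeR and in DESeq2. The values closest to passing were those of Fhl3, a LIM-domain partner of Klf3 (log2 fold change 0.31, adjusted p = 0.0712), and of the deacetylase gene Hdac1 (0.15, 0.281), the members of this list with an unadjusted p under 0.05. The corepressor genes Sin3a and Ctbp1, through which most of these repressors act, stood at 0.05 (adjusted p = 0.731) and -0.03 (0.847). Of 12 glucocorticoid and clock genes, which share inputs with Klf9 and Klf15, 0 passed, with Sgk1 at -0.11 (0.273) and Bhlhe40 at 0.17 (0.281), again the members with an unadjusted p under 0.05. DESeq2 also called 0 of the 12. Bhlhe40 passed without Zac1 4 (0.225, adjusted p = 0.0487), with voom quality weights (0.0432) and on unscaled counts (0.00539), and did not pass without Zac1 4 and EGFP 1 together (0.162, 0.0521). Fhl3 passed on unscaled counts (0.00169), with voom quality weights (0.0466) and unfiltered (0.0308), and Hdac1 on unscaled counts (0.00579) and with those weights (0.0421).

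Among regulators of the ERK5-MEF2 route and of serum response factor, which feed into Klf2, Klf4 and early response genes, 1 of 12 tested genes rose and 0 fell, where 3.12% of all tested genes rose. DESeq2 called 0 of the 12. The gene called by edgeR was Srf itself, at 44.5, 50.2 and 51.4 CPM in Zac1 and 38.7, 41.8 and 39.6 CPM in EGFP (log2 fold change 0.28, SE 0.07, edgeR adjusted p = 0.0449). That call was lost under 10 alternatives, among them DESeq2 (0.0805), the robust GC curve (0.224) and leaving out any library but Zac1 4 (up to 0.228), and the sign turned to -0.01 with the least-squares GC curve.

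Of 11 TGF-beta pathway genes, 1 rose and 0 fell, with a list median of -0.006, where 3.12% of all tested genes rose. DESeq2 also called 1 of the 11. The list holds receptor and Smad genes besides feedback genes. The gene that rose was Tgfb1, the ligand gene, which had 30.7, 30.5 and 29.9 CPM in Zac1 and 24.8, 20.1 and 18.5 CPM in EGFP (log2 fold change 0.52, SE 0.10, edgeR adjusted p = 0.00731; 0.066 without EGFP 3). Smad7, the feedback inhibitor of the pathway, was at 0.24 (adjusted p = 0.082). In the list of 19 immediate-early genes, which does not hold Klf10, 18 were tested. Of these 4 rose and 0 fell, where 3.12% of all tested genes rose and 0.668% fell. Values were above 0 for 17 of the 18, with a list median of 0.22, against -0.002 over all tested genes. DESeq2 called 3 of the 18. Fosb had 6.78, 6.22 and 6.20 CPM in Zac1 and 2.06, 2.48 and 2.50 CPM in EGFP (log2 fold change 1.44, SE 0.17, edgeR adjusted p = 0.000211). Atf3 was 1.35-fold higher (0.00731), Egr1 1.53-fold (0.0304) and the orphan receptor gene Nr4a1 1.38-fold (0.0377). Atf3 was lost without Zac1 6 (0.0511) or EGFP 3 (0.0629). Egr1 was lost without Zac1 5, Zac1 6, EGFP 1 or EGFP 3 (up to 0.169), and Nr4a1 without Zac1 5, Zac1 6, EGFP 2 or EGFP 3 (up to 0.194). Egr1 was also lost with robust variance (0.0652), with no variance trend (0.0571) and among genes averaging 50 or more reads (0.0548). Nr4a1 was also lost in DESeq2 (0.128), with the robust (0.0682) and least-squares (0.0811) GC curves and among genes averaging 50 or more reads (0.0565). This list was assembled with earlier results of these data known, and its direction is no independent evidence.

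Of 19 genes described elsewhere as targets of Kruppel-like factors, 10 were tested, 2 rose and 0 fell, with a list median of 0.09, where 3.12% of all tested genes rose and 0.668% fell. DESeq2 also called 2. Pdgfa, a growth factor gene described as a Klf5 target in smooth muscle, had 22.5, 22.5 and 24.7 CPM in Zac1 and 15.2, 15.2 and 15.5 CPM in EGFP. All Zac1 libraries were far above (log2 fold change 0.61, SE 0.09, edgeR adjusted p = 0.00105), and the call held under each of the 22 alternatives. The other was Tgfb1, described as a Klf6 target and given above. Cdkn1a, a cell cycle inhibitor gene described as a target of Klf4 and Klf6, was at 0.08 (adjusted p = 0.476) and Ccnd1 at 0.09 (0.261).

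The genes most like Klf10 over the 6 libraries were sought by the root mean square difference of centred log2 CPM among 9849 other protein-coding genes averaging 50 or more reads, for which the median difference was 0.216. Pdgfb, which encodes a platelet-derived growth factor chain, was nearest at 0.0401, then Nrarp, a feedback inhibitor of Notch signalling, at 0.0522, and Rgmb, a BMP co-receptor gene, at 0.0526. Pdgfb stood at 35.1, 36.5 and 36.9 CPM in Zac1 and 25.5, 29.7 and 30.3 CPM in EGFP (log2 fold change 0.34, SE 0.08, edgeR adjusted p = 0.0252). As for Klf10, EGFP 1 was the lowest library. Nrarp (0.35, adjusted p = 0.348) and Rgmb (0.27, 0.306) did not pass. With 2 groups this measure picks genes with a like group difference.

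**Figure D4:**
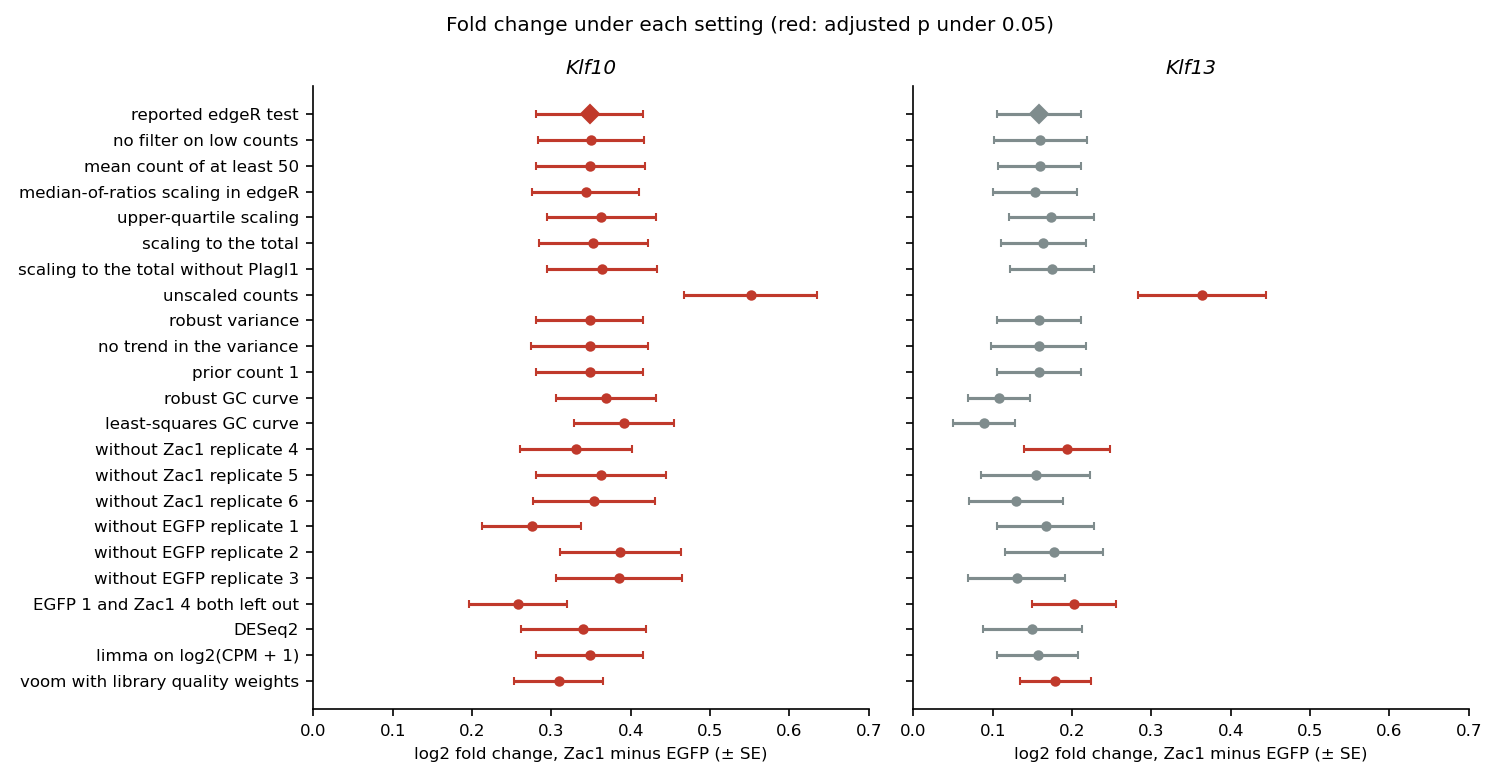
Log2 fold change (Zac1 minus EGFP) ± SE of Klf10 and Klf13 in the reported edgeR test and under the 22 alternatives, red where the adjusted p was under 0.05. Klf10 is red throughout, from 0.26 to 0.55, and Klf13 is red in 4 alternatives.

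Klf10, with a transcript GC content of 46.9%, lay among 1297 tested genes of like GC content with a median log2 fold change of -0.02, and its own was 0.37 and 0.39 with robust and least-squares GC offsets. Klf4, at 54.6%, lay among 1195 genes with a median of 0.04. Over 12116 tested genes the fold change followed GC content (Spearman's rho 0.40, across genes, which are not independent replicates), and genes as GC-rich as Klf4, Klf13 and Klf15 had medians of 0.04, 0.05 and 0.05. With robust and least-squares GC offsets the log2 fold change of Klf4 was 0.169 and 0.156, and that of Klf15 was -0.144 and -0.159. Beyond the offsets, the part of GC content in the fold changes of Klf4, Klf13 and Klf15 was not tested.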

How the data were processed

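PolyA RNA of 6 AML12 libraries, 3 with a Zac1 and 3 with an EGFP construct, was sequenced from directional libraries, per the labels' protocols. The file deposited by the authors holds a read count for each gene in each library. The tools named in the submitters' processing notes are FastQC, STAR, HTSeq and DESeq2; for versions, strand setting, build and gene models, the entry is: not given in the sources used here. Although called normalized, the deposited values were treated as raw counts, since all are whole, library totals differ and median-of-ratios size factors span 0.928 to 1.16. Replicates of a group were not the same library deposited again (chi-square per degree of freedom 2.20 to 8.22).

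Symbols matched 49326 of 49585 gene IDs. Coordinates, exon lengths and GC content come from GENCODE M21 (GRCm38) by gene ID, and promoters from RefSeq (GRCm38.p6). Genes reaching a mean count of 10 were tested with TMM scaling in edgeR 4.0.16 (glmQLFit, glmQLFTest, R 4.3.3, prior count 0.125). The test was two-sided, with Benjamini-Hochberg adjustment over all tested genes and a threshold of 0.05. The fit was also run on simulated counts, and how often it recovered changes as small as that of Klf10 is not given here. The SE is the log2 fold change divided by the root of F, and 95% intervals use the t distribution. Exact 95% intervals of ratios (Clopper-Pearson) cover counting error only. Alternatives were other filters, scalings and variance settings, GC offsets (loess span 0.5), DESeq2 1.42.0, limma 3.58.1, voom quality weights and left-out libraries.

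The 10 factors and all lists were chosen with earlier results of these data known. Named besides the factors are list members past the test (up to 6 a list by p, or the 2 with the smallest p where none passed) and the 3 genes most like each factor past the test. Sin3a, Ctbp1, Smad7, Cdkn1a, Ccnd1, Klf1, Sp6 and the named endothelial and macrophage markers fall outside this rule and were chosen after their values were seen. One gene of the lists is not reported here.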

Additional observations from a re-analysis of the deposited data

How the results depend on the processing

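Klf10 kept its direction and its call under each of the 22 alternatives. One listed factor was higher in the reported test; with any 1 library left out 1 to 2 were, 2 without EGFP 1 and Zac1 4 together and with voom quality weights (Klf13 in addition), and 5 on unscaled counts, which leave the greater depth of Zac1 in place and move the median of all genes to 0.201. No listed factor was called lower under any alternative run. Values changed sign in few cases, all but that of Srf among genes that had not passed: Klf3 was at 0.185 on unscaled counts, 0.016 and 0.043 with the robust and least-squares GC curves, and -0.04 to 0.003 with 1 library left out (0.002 without Zac1 6, 0.003 without EGFP 3). Klf6 was at 0.13 on unscaled counts and 0.026 with the least-squares GC curve, Klf9 at 0.118, Klf15 at 0.106 and Sgk1 at 0.091 on unscaled counts, and Srf at -0.01 with the least-squares curve. The cause was not tested.

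Over all genes, calls (higher, lower) numbered 979 (731, 248) with no filter on low counts, 241 (190, 51) with a mean count of at least 50, 3388 (3365, 23) on unscaled counts, 1461 (853, 608) without both libraries and 1297 (797, 500) with voom quality weights; 223 were lower with the least-squares GC curve. With 1 library left out they ran from 206 to 963 (187 to 584 and 19 to 379). Members of the related lists past the test were 8, but 15 with no filter, 5 with a mean count of at least 50, 43 unscaled, 19 without both libraries, 23 with voom weights and 2 to 16 with 1 library left out. The share of all tested genes called was 3.78%, but 4.5%, 2.33%, 27.9%, 12.0%, 10.7% and 1.7% to 7.95% in the same order. The changes in these counts are therefore no result about the lists. The fits with no filter and without both libraries drew nearly all of each gene's variance from the other genes (prior degrees of freedom infinite and 1563, against 10.02), so smaller p-values there are not stronger evidence. No paired analysis was possible because the groups share no replicate number.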
